A study of Mus musculus with 9 samples.

Results

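The 46 genes described here encode proteins of the complement and coagulation systems of blood plasma. They were chosen by name, as components, regulators and coagulation or fibrinolysis factors, and all 46 were found among the 21470 genes of the expression table. The members and the other gene lists used here were chosen with earlier results of these data known. Of these, 23 belong to complement and 23 to coagulation and fibrinolysis. RNA of whole mouse liver had been sequenced in 9 libraries, 3 in each of 3 groups. In the BDL+LIG group the bile duct was tied off (bile duct ligation, BDL) and the mice received ligustilide (LIG), a phthalide found in the roots of Angelica and Ligusticum plants. The BDL group had the ligation and no stated treatment, and the sham group had neither. The design text gives a LIG dose of 10 mg/kg while the sample titles of that group carry the number 20, so no dose is stated here. The sources used here do not give strain, sex, age, the time between operation and sampling, or any vehicle. The labels do not state whether the libraries of a group are separate mice, and the p-values therefore cover only the spread among them, part of which may be technical.

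Complement is a cascade of plasma proteases that marks and lyses targets. The classical route starts when C1q binds antibody, the lectin route when mannose-binding lectins bind sugars, and the alternative route amplifies both through factor B and properdin. All routes cleave C3, and the terminal components then assemble a pore in the target membrane. Coagulation is a second cascade of plasma proteases, which ends when thrombin turns fibrinogen into fibrin, and plasmin dissolves the clot. Hepatocytes make most of these proteins, several of them in larger amounts during the acute-phase response to inflammation, while C1q comes mainly from macrophages and properdin from white blood cells. In cholestasis, loss of bile salts from the gut impairs vitamin K uptake, on which the activity of several clotting factors depends.

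The authors deposited FPKM, which are fragment numbers corrected for transcript length and library depth. Libraries are given in the order 1 to 3 within a group. A change is a difference on the scale of log2(FPKM + 1), with its SE, estimated with limma over all 9 libraries, and a gene passed at an adjusted p under 0.05 over the 10142 genes tested. The libraries held 29541577 to 35077556 fragments recovered from the FPKM, so the deepest was 1.19 times as deep as the shallowest. The 7 hepatocyte markers summed to 46209 to 52593 FPKM in BDL+LIG, 39393 to 46851 in BDL and 56599 to 66089 in sham, and no other marker list came near these levels. The markers did not all move with the sum. For 4 of them all BDL libraries lay below all sham libraries, and for 1, Ahsg, all lay above. In BDL against sham 2 of the 7 passed as lower, beside 6.76% of all genes. The 13 mitochondrially encoded genes took 5.86 to 8.58% of the summed FPKM in BDL+LIG, 8.30 to 9.76% in BDL and 10.6 to 16.8% in sham, and the part of these shifts in the results was not tested. Sham library 1 stood apart from the other sham libraries, at 34.5 on the second principal component against -6.3 and -12.5. The median SD of a gene was 0.147 in BDL+LIG, 0.098 in BDL and 0.246 in sham on the log2 scale. The median change of all genes was 0.16 in BDL against sham, 0.18 in BDL+LIG against BDL and 0.34 in BDL+LIG against sham, and changes are to be read relative to these shifts.

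The members were among the abundant transcripts of the liver. Together they took 5.80, 3.77 and 4.90% of the summed FPKM in BDL+LIG, 5.02, 5.08 and 5.11% in BDL, and 3.92, 3.52 and 2.82% in sham. All 3 BDL libraries lay above all 3 sham libraries, and the BDL+LIG libraries spanned both groups. The 3 fibrinogen genes alone made up 2.01, 1.04 and 1.78% in BDL+LIG, 2.04, 2.08 and 2.09% in BDL, and 1.49, 1.20 and 0.757% in sham. On the FPKM scale, which is per length, the highest mean over the 9 libraries was that of Fgb, at 4309 FPKM, followed by C3 at 2501 and Fgg at 2358. At the other end, Cd55 and F8 did not reach 1 FPKM in any library and were not tested. The remaining 44 members passed the filter on low values, and each reached it in the sham libraries alone.

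Complement and coagulation genes changed in both directions after ligation. C3, factor B, properdin, the C1q chains, fibrinogen, protein S and Cpb2 were higher in BDL than in sham, while C8b, C8g, C9, Mbl2, Masp2, Klkb1 and protein C were lower. In all, 21 of 44 members passed in BDL against sham (47.7%), beside 29.7% of all genes tested. Of these, 14 rose, beside 22.9% of all genes, and 7 fell, beside 6.76%. The other 23 did not pass. Because the members were chosen with earlier results of these data known, these shares are a description and no independent test. The BDL and sham libraries did not overlap for 29 of 44 members, beside 45% of all genes, with 17 above (33.7% of all genes) and 12 below (11.3%). The median change of the 44 was 0.05, against 0.16 for all genes. Under median-of-ratios scaling, which moves the median of all genes to -0.06, 6 rose and 10 fell. With the trend on gene length removed, 9 rose and 11 fell, and with no filter on low values 7 rose and 7 fell. No call changed its sign under any of the 22 alternatives, and 12 of the 21 calls held under every one of them. The 12 are C1qb, Mbl2, C3, Cfb, C8b, C8g, C9, Klkb1, Kng2, Proc, Pros1 and Cpb2. The number that rose was 8, 8 and 7 without BDL library 1, 2 or 3, and 8 without sham library 2.

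**Figure D1:**
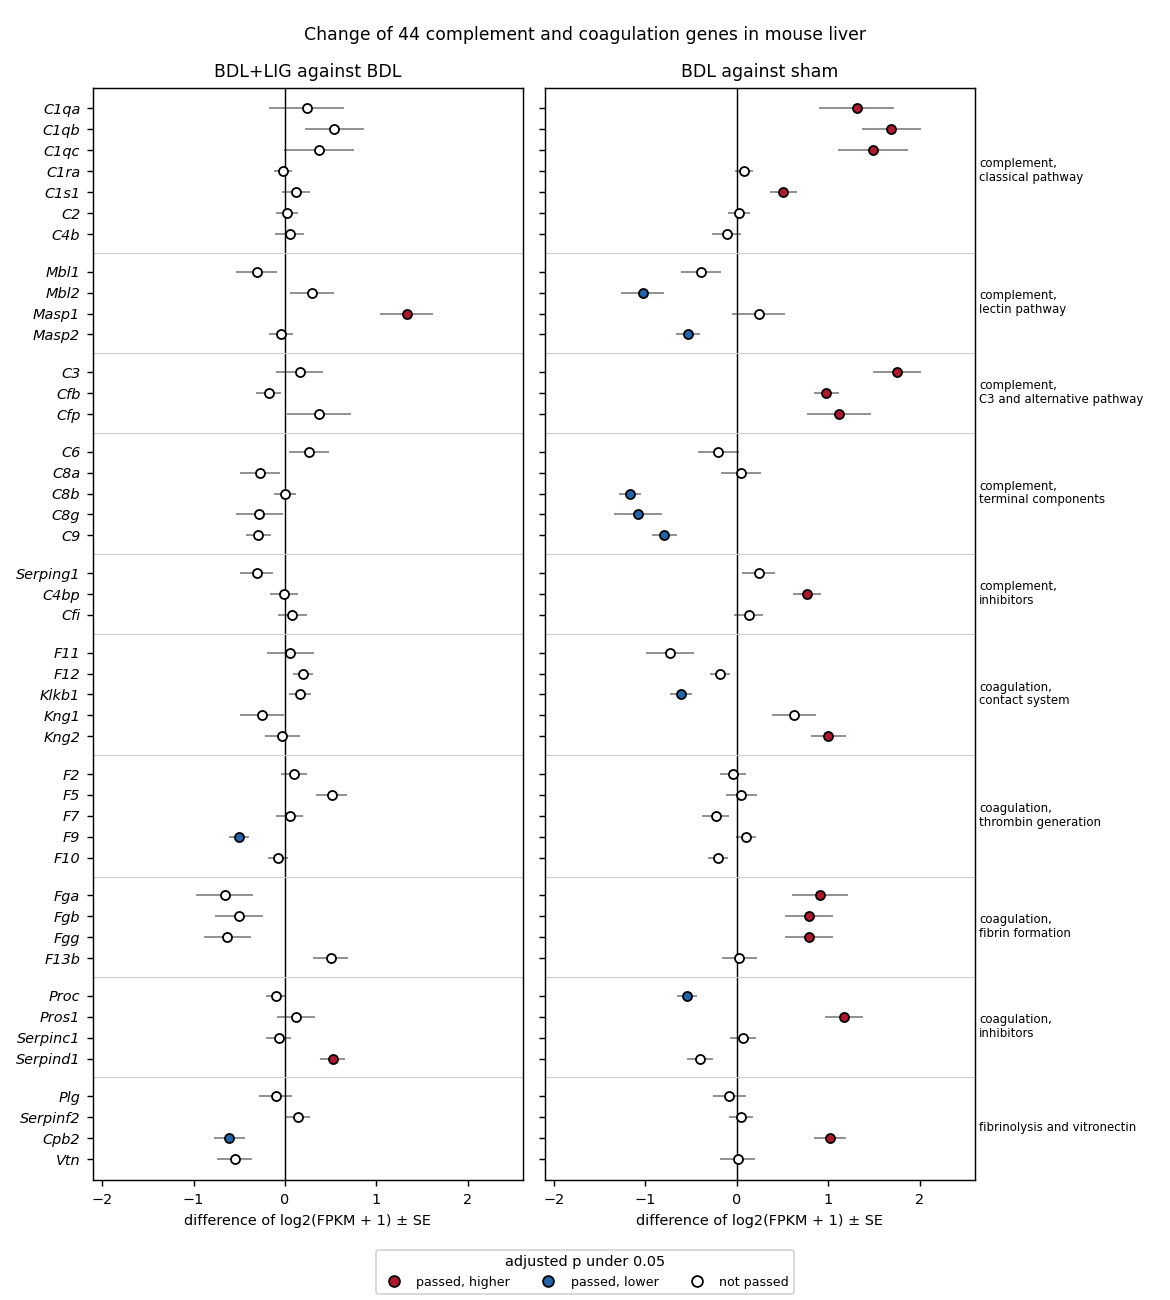
Differences of log2(FPKM + 1) with their SE for the 44 tested members, in rows by role, for BDL+LIG against BDL (left) and BDL against sham (right); red points passed and were higher, blue points passed and were lower, and open points did not pass. In BDL against sham 14 points are red and 7 blue, and in BDL+LIG against BDL 2 are red and 2 blue.

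C3, the protein on which all complement routes converge, showed the largest rise of the set. C3 had 2928, 3035 and 3198 FPKM in BDL, against 1139.9, 1004 and 654 in sham. The 3 BDL libraries lay within a narrow range and far above every sham library (1.75 ± 0.26, adjusted p = 0.000681, 3.36-fold). Cfb, which encodes the protease factor B of the alternative route, had 799.7, 805 and 813 FPKM in BDL, against 371, 456 and 400.5 in sham. These groups did not overlap either (0.98 ± 0.14, adjusted p = 0.000521). Cfp, which encodes properdin, the stabiliser of the alternative C3 convertase, averaged 49.6 ± 5.77 FPKM in BDL and 24.5 ± 13.3 in sham (SD, n = 3 each). Its rise of 1.12 ± 0.35 passed at an adjusted p of 0.0338. The Cfp call depended on single libraries: without sham library 1 the change was 0.73 (adjusted p = 0.06), and it also failed without BDL library 1, 2 or 3 or sham library 2, with a change of 0.73 to 1.22 over the libraries left out. It was also lost with no filter, under median-of-ratios scaling, under quantile normalization and with the length trend removed, at 0.84 to 1.12.

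The 250 bases before the start of C3 are shown because C3 had the largest fold change of the members. Coordinates and sequence are those of RefSeq on build GRCm38.p6, whereas the expression table was made on GRCm39. Capitals mark matches to the C/EBP motif TTNNGNAA on either strand, the motif of a family of factors known from acute-phase genes. The promoter lies on the minus strand at chr17:57228137-57228386.
C3: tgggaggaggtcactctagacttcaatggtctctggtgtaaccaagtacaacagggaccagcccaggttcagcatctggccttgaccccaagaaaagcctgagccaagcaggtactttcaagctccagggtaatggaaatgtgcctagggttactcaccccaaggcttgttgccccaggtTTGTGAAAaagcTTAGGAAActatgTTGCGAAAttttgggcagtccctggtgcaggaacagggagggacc
It held 3 such matches, none of which overlapped another.

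The C1q chains rose together. C1qb had 129, 149.6 and 166 FPKM in BDL, against 26.2, 53.9 and 64.7 in sham (1.69 ± 0.32, adjusted p = 0.00325). C1qc had 127, 154 and 163 FPKM in BDL, against 26.6, 59.2 and 87.4 in sham (1.49 ± 0.38, adjusted p = 0.0136). For both chains every BDL library lay above every sham library, with sham library 1 the lowest. C1qa averaged 141 ± 17.0 FPKM in BDL and 64.8 ± 40.9 in sham and rose by 1.31 ± 0.41 (adjusted p = 0.037). Without sham library 1 the change of C1qa was 0.80 (adjusted p = 0.0559). Its call was also lost without BDL library 1, 2 or 3, sham library 2 or BDL+LIG library 2, and over all these the change ran from 0.80 to 1.41. The call for C1qc was lost without BDL library 3, at 1.42. With no filter and under median-of-ratios scaling the calls for C1qa (1.02 to 1.31) and C1qc (1.20 to 1.49) were lost, and that for C1qa with the BDL and sham groups fitted alone.

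Markers of macrophages and of some other cell types moved with C1q and properdin, while 22.9% of all genes rose. The 8 Kupffer cell markers summed to 285 to 417 FPKM in BDL and to 71.3 to 144 in sham, and 8 of 8 rose. The 10 markers of monocytes and monocyte-derived macrophages summed to 317 to 416 FPKM in BDL and to 61.0 to 74.5 in sham, and 9 of 10 rose. The 6 neutrophil markers summed to 43.2 to 47.2 FPKM in BDL and to 4.08 to 5.68 in sham, and 4 of 4 tested rose. The 7 cholangiocyte markers summed to 410.3 to 607 FPKM in BDL and to 19.96 to 36.2 in sham, and 7 of 7 rose. Of the other lists, 1 of 9 markers rose for sinusoidal endothelium, 4 of 8 for stellate cells and myofibroblasts and 1 of 1 tested for platelets. For hepatocytes 0 of 7 rose and 2 fell. Some of the markers that rose did not reach the filter in the sham libraries alone. These were 1 of Kupffer cells, 5 of monocytes and macrophages, 3 of neutrophils, 5 of cholangiocytes, 2 of stellate cells and 1 of platelets. No marker of these lists was at 0 in all libraries. In whole liver, more cells of a type and more RNA per cell cannot be told apart, and the part of these cells in the C1q and properdin values was not tested.

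**Figure D2:**
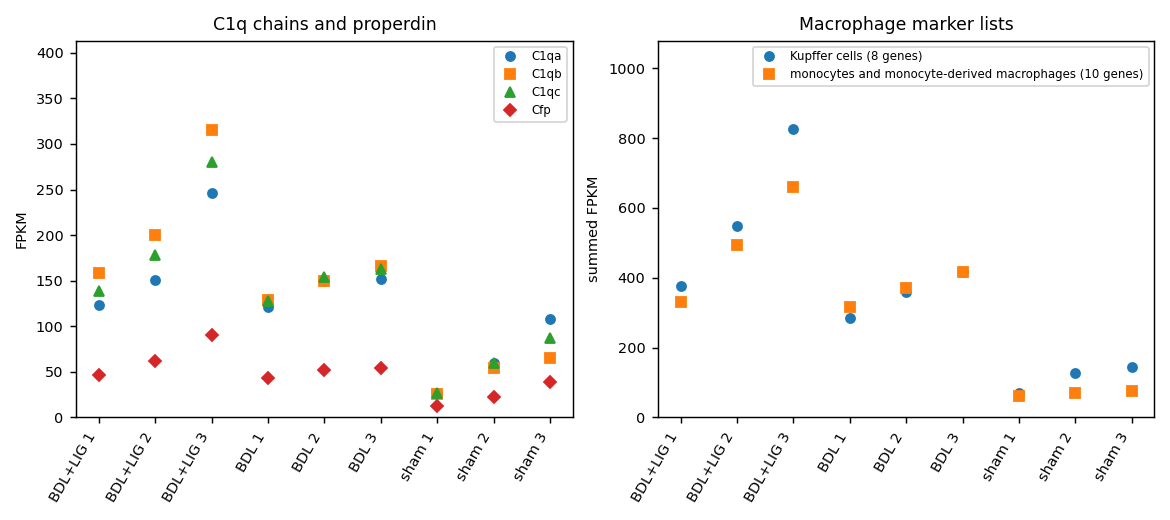
FPKM of the C1q chains and properdin (left) and summed FPKM of 2 macrophage marker lists (right) in each of the 9 libraries. Sham libraries are lowest in both panels for C1qb and for both marker sums, and BDL+LIG library 3 is the highest, at 315 FPKM for C1qb and 825 for the Kupffer cell sum.

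Of the other 4 classical pathway genes, which encode the proteases of C1 and their substrates, 1 rose, beside 22.9% of all genes. C1s1, the C1 protease that cleaves C4 and C2, had 191, 199 and 203 FPKM in BDL, against 169, 135 and 116 in sham. The groups did not overlap and the change passed (0.51 ± 0.15, adjusted p = 0.025), but it failed without any of BDL libraries 1, 2 and 3 and without sham library 2 or 3, with changes of 0.39 to 0.54. It was lost too with no filter, under median-of-ratios scaling, under quantile normalization and with the length trend removed, at 0.22 to 0.53. C1ra, the protease that activates C1s, averaged 129 ± 1.28 FPKM in BDL and 121 ± 2.21 in sham. C2 averaged 65.8 ± 2.44 FPKM in BDL and 64.5 ± 1.82 in sham. C4b averaged 256 ± 0.780 FPKM in BDL and 278 ± 29.0 in sham. None of these 3 genes passed. Near-identical copies exist for C4b (C4a, not analysed here), C1ra (C1rb) and C1s1 (C1s2), so how fragments were divided between copies is uncertain.

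In the lectin pathway 2 of 4 genes fell, beside 6.76% of all genes, and none rose, beside 22.9%. Mbl2, a mannose-binding lectin, had 220.0, 206 and 184 FPKM in BDL, against 346, 433 and 479.6 in sham. Every BDL library was below every sham library (-1.03 ± 0.24, adjusted p = 0.00959). Masp2, the lectin-bound protease that cleaves C4 and C2, had 57.1, 54.9 and 56.1 FPKM in BDL, against 97.7, 74.6 and 73.6 in sham (-0.53 ± 0.13, adjusted p = 0.012). Sham library 1 was the highest for Masp2, the groups did not overlap, and the call was lost without BDL library 2, at -0.51, and in TPM, at -0.44. Mbl1, the second mannose-binding lectin, averaged 41.3 ± 0.064 FPKM in BDL and 56.5 ± 18.3 in sham. Masp1, the protease that activates MASP-2, averaged 5.26 ± 0.791 FPKM in BDL and 4.66 ± 2.78 in sham. Neither passed, but without sham library 1, the lowest of its group for Mbl1 and the highest for Masp1, Mbl1 passed at -0.68 and Masp1 at 0.62. Masp2 and Masp1 overlap other genes in the annotation (Tardbp for Masp2, Rtp4 for Masp1), and the sources used here do not say whether counting used strand.

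Of the terminal components, 3 of 5 fell after ligation, beside 6.76% of all genes. C8b, the beta chain of C8, had 131, 122 and 110.4 FPKM in BDL, against 274, 298 and 245 in sham, which was the smallest adjusted p of the set (-1.17 ± 0.12, adjusted p = 7.04e-05). C8g, the gamma chain, had 140.2, 138 and 137 FPKM in BDL, against 192, 317 and 415 in sham (-1.08 ± 0.26, adjusted p = 0.00992). C9, which polymerises to form the pore, had 204, 204 and 197 FPKM in BDL, against 353, 339.9 and 356 in sham (-0.79 ± 0.14, adjusted p = 0.00221). For all 3 genes the groups did not overlap, and sham spread widely for C8g and little for C9. C8a, the alpha chain, averaged 234 ± 9.13 FPKM in BDL and 236 ± 80.0 in sham, and C6, which joins the complex first after C5, averaged 61.5 ± 2.41 FPKM in BDL and 74.3 ± 28.8 in sham. These genes did not pass, and their groups overlapped. C8g overlaps Fbxw5 and C8a overlaps Fyb2 in the annotation.

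C8a and C8b lie next to each other on chromosome 4 and encode chains of one protein, yet only C8b passed. The log2 ratio of C8b over C8a was -0.78, -0.99 and -1.10 in BDL, against -0.21, 0.36 and 0.64 in sham. The groups did not overlap, and the difference in ratio was -1.22. The smallest two-sided p of an exact permutation test with 3 libraries in each group is 0.1, so ratios within a library carry no test. All pairs shown here were chosen after their values had been seen. The promoters of the pair are printed for comparison, from GRCm38.p6, with the STAT motif TTCNNNGAA, the HNF1 motif GTTAAT and the C/EBP motif in capitals. That of C8a is on the minus strand at chr4:104876399-104876648 and that of C8b on the plus strand at chr4:104766067-104766316.
C8a: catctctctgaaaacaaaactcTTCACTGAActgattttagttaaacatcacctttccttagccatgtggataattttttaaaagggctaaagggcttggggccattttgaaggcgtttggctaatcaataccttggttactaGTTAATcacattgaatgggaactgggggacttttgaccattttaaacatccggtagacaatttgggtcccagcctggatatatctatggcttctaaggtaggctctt
C8b: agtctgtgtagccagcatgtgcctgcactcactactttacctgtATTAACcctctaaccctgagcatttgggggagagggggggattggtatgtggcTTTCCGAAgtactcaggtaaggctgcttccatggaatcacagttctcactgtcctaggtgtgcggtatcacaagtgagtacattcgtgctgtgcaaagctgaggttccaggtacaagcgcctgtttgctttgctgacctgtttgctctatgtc
C8a held a STAT match and an HNF1 motif, and C8b an HNF1 motif and a C/EBP match.

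Of the complement inhibitors, 1 of 3 tested rose, beside 22.9% of all genes. C4bp, which encodes the C4b-binding protein that inactivates the classical C3 convertase, had 416, 451 and 464 FPKM in BDL, against 277, 305 and 208 in sham. All BDL libraries were higher (0.77 ± 0.15, adjusted p = 0.0041), although the call was lost under median-of-ratios scaling, at 0.48. Serping1, the C1 inhibitor that also blocks the contact proteases, averaged 783 ± 29.4 FPKM in BDL and 669 ± 91.7 in sham, and Cfi, the protease that cleaves C3b and C4b, averaged 377 ± 6.17 FPKM in BDL and 350.3 ± 72.3 in sham. Neither passed. Cd55, a membrane-bound decay accelerator, averaged 0.448 ± 0.072 FPKM in BDL and 0.434 ± 0.106 in sham and stood on 146 to 437 fragments per library.

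**Figure D3:**
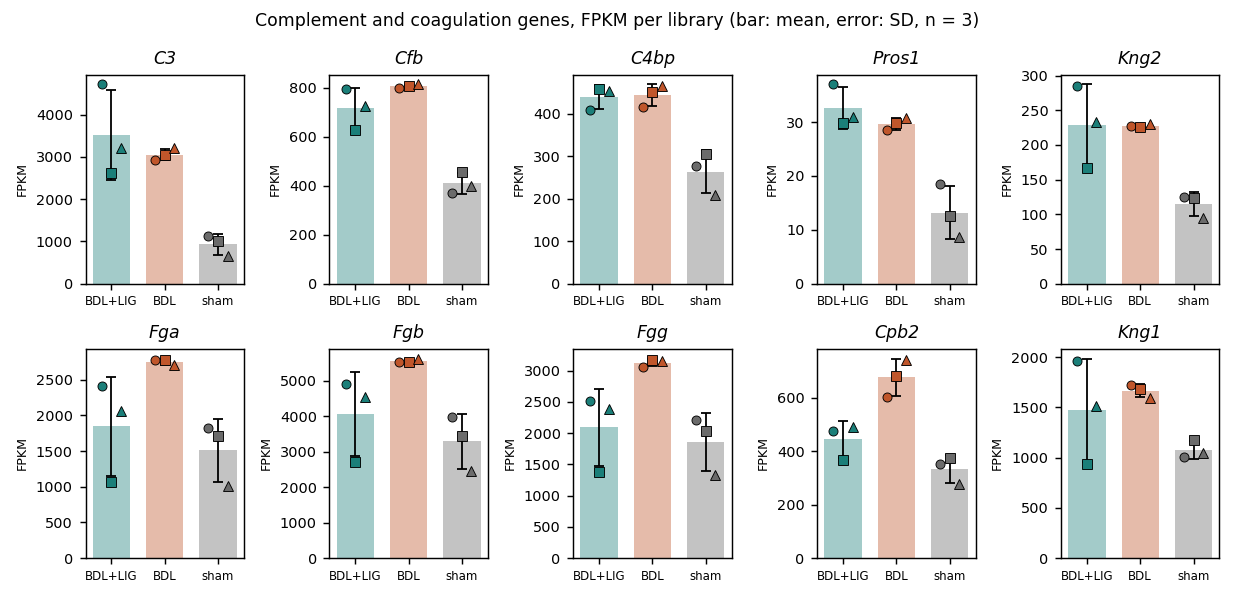
FPKM per library of 10 members, 9 of which passed as higher in BDL than in sham (Kng1 did not pass), with bars for the mean and error bars for the SD of 3 libraries; circles, squares and triangles are libraries 1, 2 and 3. BDL libraries lie above the sham libraries in each panel, and BDL+LIG library 2 is the lowest of its group in all fibrinogen panels.

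In the contact system, which starts coagulation on charged surfaces and releases bradykinin, 1 of 5 genes rose and 1 fell. Of all genes 22.9% rose and 6.76% fell. Kng2, a kininogen gene, had 228, 226 and 229.9 FPKM in BDL, against 125, 124 and 94.4 in sham, with no overlap (1.00 ± 0.19, adjusted p = 0.00298). Klkb1, which encodes the plasma kallikrein that cuts kininogen, had 35.4, 37.8 and 38.6 FPKM in BDL, against 62.7, 52.9 and 57.6 in sham, again with no overlap (-0.61 ± 0.12, adjusted p = 0.00308). Substrate and protease thus moved in opposite directions. Kng1, the neighbouring and closely related kininogen gene, had 1723, 1680.3 and 1598 FPKM in BDL, against 1009, 1173 and 1046 in sham. Its groups did not overlap and its adjusted p was 0.0685. Kng1 passed at 0.63 with the BDL and sham groups fitted alone or with BDL+LIG library 1 or 2 left out, at 0.61 under quantile normalization and at 0.72 in TPM. F11, the gene of factor XI next to Klkb1, averaged 16.5 ± 2.05 FPKM in BDL and 30.0 ± 15.0 in sham, where library 1 held 47.1 and the others 23.9 and 19.0. Its adjusted p was 0.0605, and it passed at -0.99 when sham library 3 was left out, under median-of-ratios scaling at -1.01, under quantile normalization at -0.86 and with the length trend removed at -0.94. F12, the gene of factor XII, averaged 226 ± 10.96 FPKM in BDL and 255 ± 12.2 in sham and passed only with the length trend removed, at -0.37.

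The genes of thrombin generation did not pass in BDL against sham, in 0 of 5 tested by limma, with 0 at an unadjusted p under 0.05 and 0 by voom. Of all 10142 genes, 3008 passed by limma (29.7%), 4112 had an unadjusted p under 0.05 there, and 2799 passed by voom. With 5 genes, a count of 0 does not show that this role differs from all genes. F2, the gene of prothrombin, averaged 644 ± 24.7 FPKM in BDL and 665 ± 75.8 in sham. F5, the cofactor of factor Xa, averaged 42.8 ± 1.04 FPKM in BDL and 42.2 ± 11.2 in sham. F7, the protease that tissue factor activates, averaged 38.4 ± 0.699 FPKM in BDL and 46.1 ± 10.0 in sham. These values lay within the spread of the sham libraries. F9, whose product activates factor X, averaged 72.7 ± 2.07 FPKM in BDL and 67.9 ± 6.77 in sham. F10, which encodes the protease that makes thrombin, averaged 173 ± 8.35 FPKM in BDL and 198 ± 12.6 in sham, without overlap. F7 passed at -0.52 under median-of-ratios scaling and at -0.41 without sham library 3, and F10 at -0.40 with the length trend removed. F8, the cofactor of factor IXa, averaged 0.284 ± 0.057 FPKM in BDL and 0.285 ± 0.115 in sham and stood on 94 to 294 fragments per library.

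Fibrinogen genes were higher after ligation. Fga, the gene of the alpha chain, had 2775, 2773 and 2699 FPKM in BDL, against 1821, 1704 and 1004 in sham (0.91 ± 0.31, adjusted p = 0.0489). Fgb, the beta chain, had 5528, 5549 and 5625 FPKM in BDL, against 3992, 3435 and 2456 in sham (0.79 ± 0.26, adjusted p = 0.0453). Fgg, the gamma chain, had 3059, 3171 and 3153 FPKM in BDL, against 2207, 2027 and 1333 in sham (0.79 ± 0.26, adjusted p = 0.0443). BDL libraries lay close together and above every sham library, while sham library 3 was the lowest for each chain. These adjusted p-values are close to the threshold. All 3 calls were lost without any of BDL libraries 1, 2 and 3, without sham library 2 or 3, and without BDL+LIG library 3, where the changes ran from 0.64 to 1.02 for Fga, 0.59 to 0.83 for Fgb and 0.56 to 0.87 for Fgg. They were also lost with no filter, under median-of-ratios scaling and with the length trend removed, at 0.62 to 0.91 for Fga and 0.49 to 0.79 for Fgb and Fgg, and that of Fgb under quantile normalization as well. F13b, the carrier subunit of the enzyme that crosslinks fibrin, averaged 41.0 ± 1.46 FPKM in BDL and 41.4 ± 11.8 in sham and did not pass.

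Fgg, Fga and Fgb form one cluster on chromosome 3, and their products are assembled in equal numbers. The ratios of the chains varied less than their levels. The log2 ratio of Fgg over Fgb ran from -0.97 to -0.76 over the 9 libraries. It was -0.97, -0.97 and -0.93 in BDL+LIG and -0.85, -0.81 and -0.84 in BDL, without overlap. The log2 ratio of Fga over Fgb ran from -1.34 to -0.99, while the level of Fga varied 2.76-fold. Their promoters are printed because the 3 genes moved together, from GRCm38.p6 at chr3:83025903-83026152 (plus strand, Fga), chr3:83049864-83050113 (minus strand, Fgb) and chr3:83007474-83007723 (plus strand, Fgg), with the same motifs in capitals.
Fga: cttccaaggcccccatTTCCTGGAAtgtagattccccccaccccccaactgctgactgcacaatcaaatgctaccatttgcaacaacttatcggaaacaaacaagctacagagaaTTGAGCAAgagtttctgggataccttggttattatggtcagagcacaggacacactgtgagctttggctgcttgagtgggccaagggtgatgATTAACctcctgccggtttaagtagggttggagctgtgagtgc
Fgb: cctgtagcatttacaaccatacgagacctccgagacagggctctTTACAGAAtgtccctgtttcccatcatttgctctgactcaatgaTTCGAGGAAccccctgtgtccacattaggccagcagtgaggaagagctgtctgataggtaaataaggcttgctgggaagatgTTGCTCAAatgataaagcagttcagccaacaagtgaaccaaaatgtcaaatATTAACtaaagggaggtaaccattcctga
Fgg: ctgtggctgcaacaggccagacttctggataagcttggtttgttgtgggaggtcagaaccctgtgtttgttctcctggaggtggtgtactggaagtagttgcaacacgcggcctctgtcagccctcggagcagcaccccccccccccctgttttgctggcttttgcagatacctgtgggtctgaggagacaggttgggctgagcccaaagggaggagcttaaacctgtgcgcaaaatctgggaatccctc
Fga and Fgb each held a STAT match, an HNF1 motif and at least 1 C/EBP match, and Fgg held none of them within these 250 bases.

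Promoters were found for 36 of 46 members. The HNF1 motif GTTAAT (reverse complement ATTAAC) was in 9 of the 36, beside 7.49% of 27025 genes with a promoter of the same length. The C/EBP motif was in 17 of 36, beside 40.3%, and the STAT motif in 6 of 36, beside 8.13%. Both strands were searched, and letters shared between motifs were counted for each. All 3 motifs together were in 0.537% of promoters, and among the members in Fga and Fgb. By outcome in BDL against sham, the C/EBP motif was in 8 of 12 members that rose, 3 of 6 that fell and 6 of 16 that did not pass. A match of letters is a description and does not show a bound site.

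Among the coagulation inhibitors, the cofactor and the protease of the protein C system moved in opposite directions. Pros1, the gene of the cofactor protein S, had 28.5, 29.8 and 30.8 FPKM in BDL, against 18.5, 12.5 and 8.60 in sham (1.17 ± 0.21, adjusted p = 0.00256). Proc, the gene of protein C, which inactivates factors Va and VIIIa, had 212, 203 and 204 FPKM in BDL, against 291, 301 and 309.7 in sham (-0.54 ± 0.11, adjusted p = 0.00361). The groups did not overlap for either gene. Within each library the log2 ratio of Pros1 over Proc was -2.89, -2.77 and -2.73 in BDL, against -3.98, -4.59 and -5.17 in sham. Serpinc1, which encodes antithrombin, averaged 1122 ± 70.9 FPKM in BDL and 1072 ± 88.2 in sham and did not pass. Serpind1, the gene of heparin cofactor II, a second thrombin inhibitor, had 173, 173 and 168 FPKM in BDL, against 267, 238 and 183 in sham. Its groups did not overlap, and its adjusted p was 0.0573. It passed at -0.55 when sham library 3 was left out, under median-of-ratios scaling at -0.69, with the length trend removed at -0.60 and by voom at -0.43. Serpind1 overlaps Pi4ka in the annotation.

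In fibrinolysis, 1 of 4 genes rose, beside 22.9% of all genes. Cpb2 encodes a carboxypeptidase that slows fibrinolysis by removing the lysines to which plasminogen binds. Cpb2 had 602, 682 and 742 FPKM in BDL, against 353, 374 and 275 in sham, with no overlap (1.02 ± 0.17, adjusted p = 0.00146). Plg, the gene of plasminogen, averaged 867 ± 50.4 FPKM in BDL and 917 ± 74.3 in sham. Serpinf2, the gene of the plasmin inhibitor alpha-2-antiplasmin, averaged 414 ± 4.24 FPKM in BDL and 399 ± 16.3 in sham. Vtn, the gene of vitronectin, which binds the plasminogen activator inhibitor, averaged 2229 ± 132 FPKM in BDL and 2221 ± 312 in sham. The groups overlapped for these 3 genes, and none passed.

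**Figure D4:**
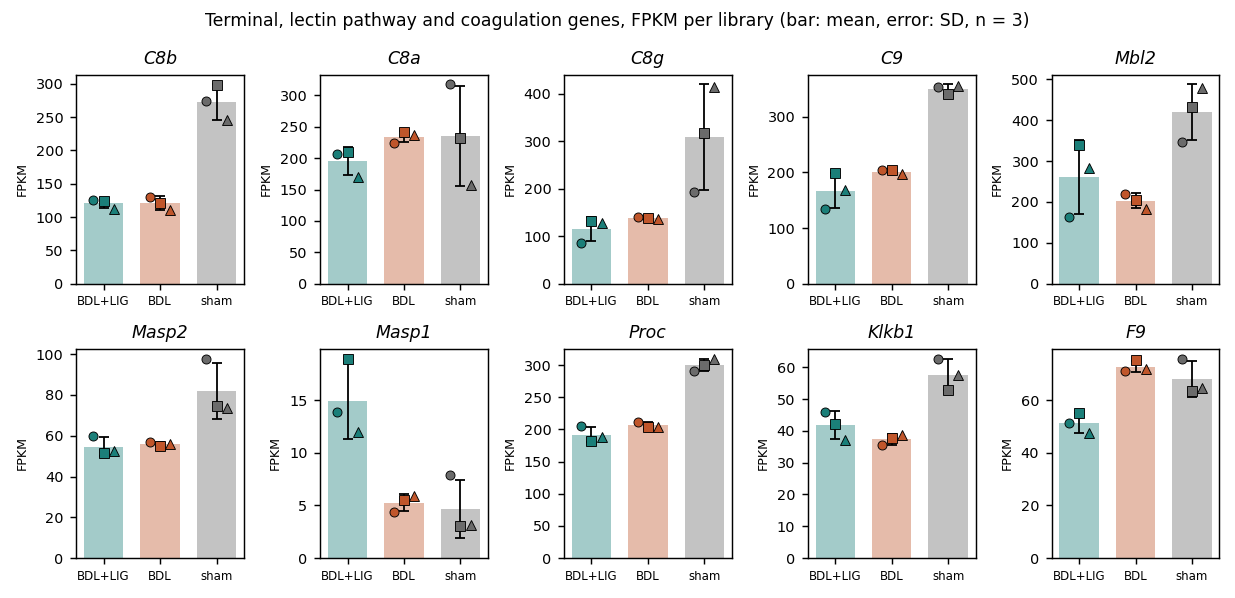
FPKM per library of 10 members of the terminal pathway, lectin pathway and coagulation, with bars for the mean and error bars for the SD of 3 libraries; circles, squares and triangles are libraries 1, 2 and 3. C8b, C8g, C9, Mbl2, Masp2, Proc and Klkb1 are lower in all BDL libraries than in all sham libraries, and C8a is not. For Masp1, F9, C8a and C8g the BDL+LIG and BDL libraries do not overlap, and of these Masp1 and F9 passed.

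Few of these genes passed between ligated mice with and without ligustilide. In BDL+LIG against BDL, 4 of 44 members passed (9.09%), beside 11.8% of all genes tested, so the share of members was no higher than the background. Masp1 and Serpind1 rose, beside 9.98% of all genes that rose, and F9 and Cpb2 fell, beside 1.79% that fell. The median change of the members was 0.01, against 0.18 for all genes. None of the 4 calls held under all 22 alternatives. Without BDL library 1, 2 or 3 none of the members passed by limma, with 6, 7 and 6 at an unadjusted p under 0.05, whereas by voom on all libraries 5 passed. The same dependence held for the whole table, where 1194 genes passed in all and 40, 0 and 54 passed without BDL library 1, 2 or 3, with 2236, 2317 and 2595 at an unadjusted p under 0.05. It was 3144 without sham library 1 and 3433 with the BDL+LIG and BDL groups fitted alone.

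Masp1 showed the largest difference among the members. It had 13.8, 18.9 and 12.001 FPKM in BDL+LIG, against 4.37, 5.53 and 5.89 in BDL, and 7.87, 3.01 and 3.11 in sham. Every BDL+LIG library lay above every library of the other groups (1.33 ± 0.29 against BDL, adjusted p = 0.0222, 2.52-fold). The call was lost without BDL+LIG library 2, without BDL library 1, 2 or 3, with changes of 1.16 to 1.40, and with no filter. Markers of some other cell types were higher in BDL+LIG as well. The 9 markers of sinusoidal endothelium summed to 67.4 to 101 FPKM in BDL+LIG and to 43.6 to 46.4 in BDL, and 9 of 9 rose. Of these, Kdr and Lyve1 reached the filter only through the BDL+LIG libraries. The 8 markers of stellate cells and myofibroblasts summed to 92.0, 180.3 and 107 FPKM in BDL+LIG and to 62.7, 72.2 and 74.3 in BDL, and 3 of 8 rose, of which Lrat and Reln reached the filter only through BDL+LIG. The neutrophil sums, made up mostly of S100a8 and S100a9, were 16.4 to 40.6 FPKM in BDL+LIG and 43.2 to 47.2 in BDL. S100a9 fell, and the other 3 of the 4 tested did not pass. The list did not move as a whole, since Csf3r had 1.88, 2.11 and 3.47 FPKM in BDL+LIG, against 1.68, 1.89 and 2.02 in BDL. The cholangiocyte sums, made up mostly of Spp1, were 223 to 463 FPKM in BDL+LIG and 410.3 to 607 in BDL, and 0 of 7 passed by limma. The median change of the 7 was 0.20. For 2 of them, Sox9 and Cldn4, all BDL+LIG libraries lay above all BDL libraries, and for 0 below. As in the whole table, no marker passed without BDL library 2. BDL+LIG library 2 was the highest for Masp1 and for the endothelial and stellate sums, and the part of these cells in the Masp1 values was not tested. F8, which sinusoidal endothelium is known to make, did not reach the filter. It had 0.438, 0.602 and 0.421 FPKM in BDL+LIG, against 0.257, 0.246 and 0.350 in BDL, and the part of these cells in its values was not tested.

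The other 3 calls were small in size. Serpind1 had 249.6, 254 and 232 FPKM in BDL+LIG, against 173, 173 and 168 in BDL (0.52 ± 0.14, adjusted p = 0.0443). F9 had 51.5, 55.0 and 47.6 FPKM in BDL+LIG, against 71.2, 75.1 and 71.9 in BDL (-0.50 ± 0.11, adjusted p = 0.024). Cpb2 had 477, 365 and 489 FPKM in BDL+LIG, against 602, 682 and 742 in BDL (-0.61 ± 0.17, adjusted p = 0.044). The groups did not overlap for any of the 3 genes. The BDL+LIG libraries lay within the sham range for Serpind1, between the other groups or at the upper end of sham for Cpb2, and below both other groups for F9. The Serpind1 and Cpb2 calls were lost without any single BDL+LIG or BDL library and without sham library 2, with changes of 0.49 to 0.55 for Serpind1 and -0.69 to -0.48 for Cpb2. The F9 call was lost without BDL+LIG library 1 or 3 and without BDL library 1, 2 or 3, with changes of -0.51 to -0.44. The Serpind1 call was also lost with a pseudocount of 0.1, with no filter, with the length trend removed and under median-of-ratios scaling, at 0.25 to 0.52. That of Cpb2 was lost with that pseudocount, with no filter, in TPM, under quantile normalization and with the length trend removed, at -0.61 to -0.43, and that of F9 in TPM, at -0.35.

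Fibrinogen was variable after ligustilide. Fga had 2411, 1071 and 2058 FPKM in BDL+LIG, Fgb 4923, 2714 and 4555 and Fgg 2509, 1383 and 2384, and the BDL values are given above. BDL+LIG library 2 was the lowest for each chain and lay within the range of the sham libraries, while libraries 1 and 3 lay between the sham and the BDL libraries. For each chain all BDL+LIG libraries were below all BDL libraries, and none passed (adjusted p = 0.174 for Fga, 0.214 for Fgb and 0.128 for Fgg). Over the 44 members, 17 had groups that did not overlap in this comparison, 6 above and 11 below, beside 51.2% of all genes, 40.7% above and 10.5% below.

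Several members that did not pass in BDL+LIG against BDL did so under an alternative. F5 averaged 61.8 ± 7.60 FPKM in BDL+LIG and 42.8 ± 1.04 in BDL, and passed at 0.51 with these groups fitted alone or without sham library 1 or 3, and at 0.67 in TPM. F13b averaged 58.5 ± 4.31 FPKM in BDL+LIG and 41.0 ± 1.46 in BDL, and passed at 0.50 under the same fits except TPM. Vtn averaged 1537 ± 312 FPKM in BDL+LIG and 2229 ± 132 in BDL, and passed at -0.55 with the groups alone or without sham library 1, at -0.71 without BDL+LIG library 1 and at -0.53 by voom. F12, at 259 ± 7.16 FPKM in BDL+LIG and 226 ± 10.96 in BDL, passed at 0.35 in TPM only. The groups did not overlap for these 4 genes.

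Except for Cpb2, the members that had changed after ligation did not pass between the ligated groups. C3 had 4710.1, 2628 and 3216 FPKM in BDL+LIG, where library 1 was higher than any BDL library and library 2 lower. In BDL+LIG, Cfb averaged 716 ± 83.5 FPKM, C4bp 439 ± 27.7, Kng2 228 ± 59.0, Kng1 1469 ± 514 and Pros1 32.6 ± 3.83. None of these differences passed, which does not show that the groups were alike. Among the terminal components, C8b averaged 121 ± 7.09 FPKM in BDL+LIG, C8g 116 ± 25.8, C8a 196 ± 22.6, C9 167 ± 31.7 and C6 74.4 ± 10.3, and none passed against BDL. All BDL+LIG libraries lay below all BDL libraries for C8g and C8a and above them for C6, and the groups overlapped for C8b and C9. Mbl2 had 163, 339.8 and 284 FPKM in BDL+LIG, with library 1 below every BDL library and the others above. Mbl1 averaged 33.3 ± 4.17 FPKM in BDL+LIG and Masp2 54.6 ± 4.60.

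The C1q chains did not pass between the ligated groups, and the ratio of C1qa to C1qb is given as a description. C1qb had 159, 199.9 and 315 FPKM in BDL+LIG, C1qc 139, 178 and 279.9 and C1qa 123, 151 and 246, with library 3 the highest for each. The log2 ratio of C1qa over C1qb was -0.37, -0.41 and -0.36 in BDL+LIG, -0.09, 0.00 and -0.13 in BDL, and 0.04, 0.14 and 0.74 in sham. The 3 groups did not overlap, although the chains are assembled in equal numbers. Pairs were chosen after their values had been seen, and this ratio carries no test. For single genes, 51.2% of all those tested did not overlap between BDL+LIG and BDL. The Kupffer cell sum was 376 to 825 FPKM in BDL+LIG and 285 to 417 in BDL, and 1 of its 8 markers rose, beside 9.98% of all genes. The sum of the 10 markers of monocytes and monocyte-derived macrophages was 331 to 661 FPKM in BDL+LIG and 317 to 416 in BDL. Of these markers 0 passed. Cfp averaged 66.3 ± 22.5 FPKM in BDL+LIG and 49.6 ± 5.77 in BDL.

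The remaining members did not pass against BDL either, apart from Cd55, which was not tested. C1ra averaged 127 ± 9.77 FPKM in BDL+LIG, C1s1 216 ± 22.3, C2 67.0 ± 10.0 and C4b 269.6 ± 56.8. Serping1 averaged 641 ± 135 FPKM, Cfi 399 ± 43.9 and Cd55 0.619 ± 0.259. In coagulation, F11 averaged 17.1 ± 0.473 FPKM, Klkb1 41.8 ± 4.36, F2 693 ± 87.7, F7 39.7 ± 1.42 and F10 164 ± 8.90. Proc averaged 192 ± 11.9 FPKM, Serpinc1 1071 ± 77.4, Plg 822 ± 195 and Serpinf2 460.5 ± 68.7.

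**Figure D5:**
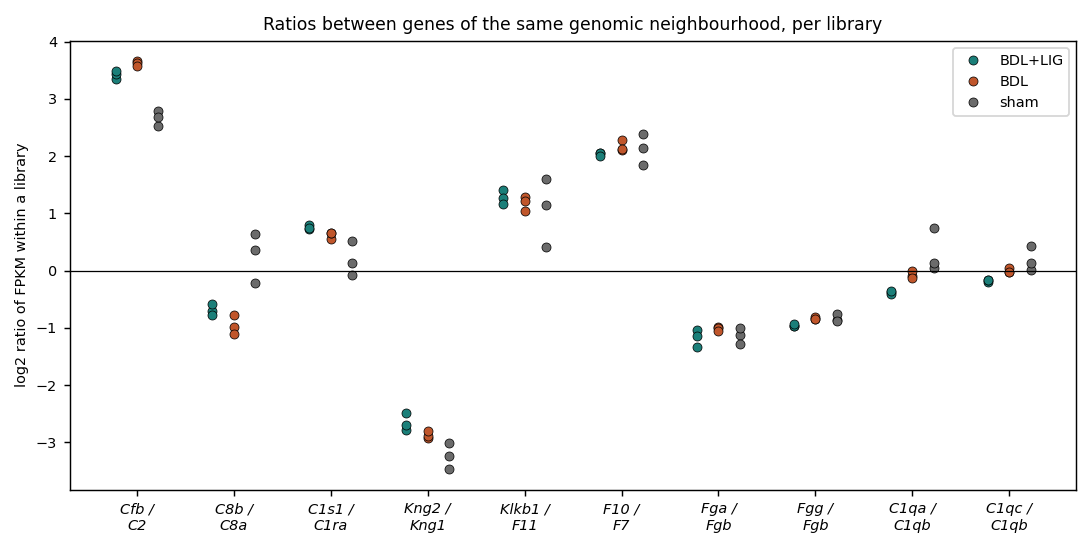
Log2 ratio of FPKM within each library for pairs of members from the same genomic neighbourhood; each point is 1 library, with BDL+LIG left, BDL in the middle and sham right. Cfb over C2 and C8b over C8a separate both ligated groups from sham in opposite directions, while Fgg over Fgb stays between -0.97 and -0.76.

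Neighbouring members did not always move together. The pairs were chosen after their values had been seen, and their ratios are a description. Cfb and C2 lie side by side on chromosome 17 and encode related proteases. The log2 ratio of Cfb over C2 was 3.35, 3.44 and 3.48 in BDL+LIG, 3.66, 3.62 and 3.57 in BDL, and 2.52, 2.79 and 2.68 in sham. C1s1 over C1ra, on chromosome 6, averaged 0.76 ± 0.04 in BDL+LIG, 0.62 ± 0.05 in BDL and 0.19 ± 0.30 in sham (SD, n = 3 each). For both pairs the 3 groups did not overlap. Kng2 over Kng1, on chromosome 16, averaged -2.66 ± 0.15 in BDL+LIG, -2.87 ± 0.07 in BDL and -3.24 ± 0.23 in sham, also without overlap. By contrast, F10 over F7 and Klkb1 over F11, both on chromosome 8, overlapped between BDL and sham.

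BDL+LIG against sham shares its libraries with both other comparisons. It called 23 of 44 members (52.3%), beside 52.6% of all genes, so the share equals the background. Of these 13 rose, beside 43.7%, and 10 fell, beside 8.92%. The BDL+LIG and sham libraries did not overlap for 24 of 44 members, beside 55.4% of all genes, with 13 above (45.7% of all genes) and 11 below (9.71%). The median change was 0.06, against 0.34 for all genes. Under median-of-ratios scaling, which moves the median of all genes to -0.10, 5 rose and 22 fell, and in TPM, which moves it to 0.59, 18 rose and 5 fell. With the length trend removed, 10 rose and 16 fell. Calls that held under all 22 alternatives were those of C1qb, C1qc, Masp1, C3, C8b, C8g, C9, Proc and Pros1, 9 of the 23.

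The changes against sham are given side by side for the ligated groups. C1qb changed by 2.23 ± 0.32 in BDL+LIG and by 1.69 ± 0.32 in BDL. C3 changed by 1.91 ± 0.26 in BDL+LIG and by 1.75 ± 0.26 in BDL. Pros1 changed by 1.29 ± 0.21 in BDL+LIG and by 1.17 ± 0.21 in BDL. Among the lower genes, C8b changed by -1.16 ± 0.12 in BDL+LIG and -1.17 ± 0.12 in BDL. C8g changed by -1.36 ± 0.26 in BDL+LIG and -1.08 ± 0.26 in BDL, and C9 by -1.08 ± 0.14 in BDL+LIG and -0.79 ± 0.14 in BDL. The adjusted p against sham ran from 4.56e-05 to 0.00147 for these 6 genes in BDL+LIG. Masp1 changed by 1.57 ± 0.29 in BDL+LIG (adjusted p = 0.00128) and did not pass in BDL. The fibrinogen genes did not pass in BDL+LIG against sham (adjusted p = 0.507 for Fga, 0.382 for Fgb and 0.631 for Fgg), and Cpb2 did not either (0.0637). Fgb passed at 0.87 under quantile normalization, and Cpb2 in 4 alternatives at 0.45 to 0.65. Calls for C1qa, Cfb, Cfp, C4bp and Kng2 in BDL+LIG against sham were lost under median-of-ratios scaling alone, where C1qa was at 1.00, Cfb at 0.25, Cfp at 0.94, C4bp at 0.19 and Kng2 at 0.41, and those for Masp2 and Klkb1 in TPM alone.

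Some members passed against sham in BDL+LIG and not in BDL, and of these only Masp1 and F9 also passed in BDL+LIG against BDL. F5 rose by 0.57 ± 0.17 (adjusted p = 0.0187) and F13b by 0.53 ± 0.19 (adjusted p = 0.0362). F9 fell by 0.39 on the log2 scale (SE 0.11, adjusted p = 0.013), Mbl1 by 0.70 (SE 0.22, adjusted p = 0.0202) and Vtn by 0.54 (SE 0.19, adjusted p = 0.0314). These calls depended on single libraries and on the processing. That of F5 was lost without BDL+LIG library 1, sham library 2 or sham library 3 (0.39 to 0.54), and that of F13b without any BDL+LIG or BDL library or sham library 3, where it was at 0.28 (adjusted p = 0.0609). The F9 call was lost without BDL+LIG library 3, at -0.34, with the 2 groups alone, at -0.39, and in TPM, at -0.16. The Mbl1 call was lost with no filter and without BDL+LIG library 1, sham library 2 or sham library 3 (-0.59 to -0.51). Vtn failed in TPM, at -0.30, under quantile normalization, at -0.31, with no filter and with the 2 groups alone, as well as without BDL+LIG library 2 or 3, without any BDL library and without sham library 2 or 3 (-0.54 to -0.44). F5 was at 0.02 under median-of-ratios scaling, 0.04 with the length trend removed and 0.46 under quantile normalization, and F13b was at -0.02, 0.19 and 0.43 in these fits. Neither passed in these fits or with the 2 groups alone, nor F13b with no filter. Mbl2 fell by 0.73 in BDL+LIG against sham (SE 0.24, adjusted p = 0.0278), by 0.42 without BDL+LIG library 1 (adjusted p = 0.0722), and its call was also lost without sham library 2 or 3, with no filter, with the 2 groups alone, in TPM (-0.49) and under quantile normalization (-0.56).

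Of the 64 other genes of both pathways on the lists, 44 were tested. Their counts in BDL against sham stand beside 22.9% of all genes that rose and 6.76% that fell. Among complement components, Fcna, a ficolin gene of macrophages, rose by 1.83 ± 0.29 in BDL against sham, C1rl fell by 0.66 on the log2 scale, and 3 of 5 tested did not pass. Of 15 tested regulators and receptors, 10 rose, 5 of which did not reach the filter in the sham libraries alone, and 3 fell. The highest level among them was that of Clu, the gene of clusterin, which blocks the terminal complex, with 3002, 3013 and 3035 FPKM in BDL, against 816, 805 and 681 in sham (1.98 ± 0.15, adjusted p = 1.12e-05). C5ar1, the receptor of the fragment C5a, rose by 1.93 ± 0.23 and Vsig4, a receptor of Kupffer cells for C3 fragments, by 1.91 ± 0.23, while Cd59b and Cfhr2 were among those that fell. Of 17 tested coagulation genes, 8 rose, 3 of which did not reach the filter in sham alone, and 0 fell. Among those that rose were F2rl1, a protease-activated receptor (1.20 ± 0.18), Serpina10, an inhibitor of factor Xa (0.95 ± 0.15), and Mcfd2, a carrier for the secretion of factors V and VIII (0.67 ± 0.15). Of 7 tested fibrinolysis genes, 6 rose, 4 of which did not reach the filter in sham alone, and 0 fell. Among those that rose were Anxa2, which binds plasminogen and its activator on cell surfaces (3.44 ± 0.22), and Plaur, the urokinase receptor (1.58 ± 0.13). C5ar1, F2rl1 and Plaur are among the genes that passed the filter through the ligated groups, and their rises are a description. Cd59b passed the filter only through the sham libraries, at 1.52, 1.37 and 2.17 FPKM there and 0.696, 0.604 and 0.716 in BDL. Its fall is likewise a description.

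In BDL+LIG against BDL, 8 of the 44 tested other genes passed as higher, beside 9.98% of all genes, and 0 as lower, beside 1.79%. Of the 8, 5 reached the filter only through the BDL+LIG libraries, so their levels are a description. The 8 calls were lost without BDL library 2, where no gene of the whole table passed. Colec11, a collectin of the lectin route, had 7.27, 13.7 and 7.37 FPKM in BDL+LIG, against 3.48, 3.04 and 1.99 in BDL (1.41 ± 0.28, adjusted p = 0.0167). Its relative Colec10 had 1.91, 2.31 and 1.15 FPKM in BDL+LIG, against 0.517, 0.451 and 0.533 in BDL, and is one of the 5. Both bind sugars and work with the proteases of Masp1 and Masp2, and library 2 was the highest for both, as for Masp1. F2rl1 rose by 0.62 ± 0.18 and Plaur by 0.60 ± 0.13. The others that reached the filter only through BDL+LIG were Cd93, Thbd, the gene of thrombomodulin, which lets thrombin activate protein C, and Plat and Plau, the genes of the plasminogen activators. Thbd had 1.81, 2.97 and 1.92 FPKM in BDL+LIG, against 0.705, 1.23 and 0.641 in BDL. Plat had 1.93, 1.58 and 2.04 FPKM in BDL+LIG, against 1.00, 0.656 and 0.918 in BDL. For both genes the groups did not overlap. The marker sums of endothelium, stellate cells and macrophages in these groups are given above, and their part in these values was not tested.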

How the data were processed

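Liver RNA of 9 mouse libraries was analysed, 3 per group, with group and replicate number taken from the sample titles. The authors deposited 1 table of FPKM for 21470 genes. The submitters' processing notes name fastp, HISAT2 2.1.0, DESeq2 and the build GRCm39. The counter, the annotation and the use of strand were not given in the sources used here. Members and lists alike were chosen with earlier results of these data known. Members were matched by symbol.

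Whole fragments could be recovered from the FPKM for 19443 of the 19449 genes that were above 0 in 2 or more libraries (99.97%, tolerance 0.02 fragments). Ahsg, Alb, Apoa1, Apoe, COX1 and Trf were not resolved and are not in the totals. Libraries of a group did not agree within sampling noise (median chi-square per gene 2.54 to 24.4). FPKM are not counts, so the main test was limma 3.58.1 in R 4.3.3 (lmFit, eBayes with trend) on log2(FPKM + 1), for genes of at least 1 FPKM in at least 3 libraries, with Benjamini-Hochberg adjustment over the 10142 genes and a threshold of 0.05. This scale understates the change of genes near 1 FPKM. The steps were tested on simulated data. 

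Each result was recomputed with a pseudocount of 0.1 or 0.5, without the filter, with a filter on a mean of 5 FPKM, with median-of-ratios scaling, TPM or quantile normalization, with the 2 groups alone, with a replicate block, with eBayes robust or without trend, and without each library. Chosen after seeing the data were a loess fit (span 0.4) that took out the trend on gene length, and voom on the recovered fragments. Where leaving a library out left 2 in a group, the fit still pooled the spread of all groups. Named members had values per library for the 1 or 2 smallest p of each role, and more where a result turned on them. Of the other pathway genes, at most 3 per list and direction with the smallest p are named, and some that this rule gives are counted but not reported by name here. C4a, Cfhr4 and Tf were not analysed here. Promoters are from RefSeq on GRCm38.p6.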

Additional observations from a re-analysis of the deposited data

How the results depend on the processing

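Members that passed in BDL against sham numbered 14 higher and 7 lower. The higher count was 7 with no filter, 6 under median-of-ratios scaling, 9 with the length trend removed and 7 to 15 with 1 library left out, and the lower count was 11 with the length trend removed and 6 to 10 with 1 library left out. In BDL+LIG against BDL, 2 were higher and 2 lower. The higher count was 1 with a pseudocount of 0.1, 0 with no filter, 1 under median-of-ratios scaling, 4 in TPM, 4 with the 2 groups alone, 1 with the length trend removed and 0 to 4 with 1 library left out. The lower count was 1 with a pseudocount of 0.1, 1 with no filter, 0 in TPM, 1 under quantile normalization, 1 with the length trend removed and 0 to 3 with 1 library left out. In BDL+LIG against sham, 13 higher became 5 under median-of-ratios scaling (11 to 15 with 1 library left out), and 10 lower became 22 under that scaling, 5 in TPM and 16 with the length trend removed (7 to 11 with 1 library left out). F13b reversed there under median-of-ratios scaling, at -0.02. The cause of these shifts was not tested. The correlation of deviations between same-numbered libraries ran from -0.13 to 0.28 and was not above 0.1 for every number in any comparison, so the numbers were not taken to pair the samples. In BDL+LIG against BDL every library correlated best with its own number (0.01 to 0.11), which is a hint from the data and not from the design. With the replicate block, 11 members were higher and 7 lower in BDL against sham, 1 was higher and 1 lower in BDL+LIG against BDL, and 13 were higher and 9 lower in BDL+LIG against sham. The calls lost under the block were those of Fga, Fgb and Fgg (adjusted p = 0.0573 to 0.0641 by limma), of Serpind1 (0.0524) and Cpb2 (0.0758) in BDL+LIG against BDL, and of Vtn (0.058) in BDL+LIG against sham, with changes as in the fit without it. All genes called in BDL+LIG against BDL numbered 1012 higher and 182 lower, 2828 and 605 with the 2 groups alone, and 0 and 0 without BDL library 2, where 2317 had an unadjusted p under 0.05 in limma. Cd55 and F8 were left out by the filter on FPKM and stood on 94 to 437 fragments per library, and whether depth limits other members was not tested.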

Other observations

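The BDL libraries were alike in their total of these transcripts. The 46 members summed to 27999.7, 28021 and 27998 FPKM in BDL, against 21124, 20954 and 17817 in sham, and to 28393, 18769 and 24791 in BDL+LIG. The coagulation and fibrinolysis members took 3.69, 3.68 and 3.67% of the summed FPKM in BDL. C4b had 256, 257 and 256 FPKM and Mbl1 41.2, 41.3 and 41.3 FPKM in these libraries, while the fragments behind Mbl1 were 10026, 10026 and 8583.

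Other ratios between functional partners also differed between groups without overlap. The log2 ratio of Mbl2 over Mbl1 was 2.51, 3.23 and 3.01 in BDL+LIG, 2.42, 2.32 and 2.15 in BDL, and 3.27, 2.78 and 2.76 in sham, so that both other groups lay above BDL. That of Serpind1 over Serpinc1, the thrombin inhibitors, averaged -2.13 ± 0.09 in BDL+LIG, -2.71 ± 0.07 in BDL and -2.24 ± 0.18 in sham (SD, n = 3 each). That of F9 over F10 averaged -1.67 ± 0.07 in BDL+LIG, -1.25 ± 0.10 in BDL and -1.55 ± 0.17 in sham. In each of these 3 pairs BDL was apart from both other groups, and BDL+LIG overlapped sham. Other pairs of partners did not share this pattern. Pros1 over Proc averaged -2.56 in BDL+LIG, -2.80 in BDL and -4.58 in sham. Masp1 over Masp2 averaged -1.90 in BDL+LIG, -3.42 in BDL and -4.28 in sham. For C4bp over C4b, BDL+LIG overlapped BDL. Pairs were chosen after their values had been seen, and no test was made.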
